A study of Mus musculus with 21 samples.

Results

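The suppressor of cytokine signalling (SOCS) family has 8 genes in the mouse, Cish and Socs1 to Socs7, and their RNA was followed across 3 blood stem and progenitor populations with and without Phf6. The members were found by symbol through their Ensembl identifiers, which gave 8 genes among the 54446 gene IDs of the count table. The members were chosen by name, with no threshold on a value, but the family itself was selected on the read counts of these same libraries, whose earlier results were known. The levels and calls below therefore describe the members. All 8 passed the filter on low counts and were tested among 21100 genes.

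The data were bulk RNA-seq read counts from 21 libraries of bone marrow cells of C57BL/6 mice aged 12 weeks. Phf6 encodes a chromatin-associated protein with plant homeodomain-like zinc fingers. The groups were Phf6 knockout (KO) LT-HSC with 3 libraries, wild-type (WT) LT-HSC with 2, KO MPP2 with 4, WT MPP2 with 4, KO MPP3 with 4 and WT MPP3 with 4. LT-HSC, the long-term stem cells of the blood, give rise to the multipotent progenitors MPP2, which lean towards megakaryocytes and red cells, and MPP3, which lean towards myeloid cells. Here the population names are those of the sample titles. Each library was made from 100 to 200 cells, sorted on Sca-1, cKit, CD150, CD48 and a set of lineage markers. How the KO allele was made, and in which cells Phf6 was deleted, is not given in the sources used here. Libraries are named by group and number. Libraries of 1 genotype and number were taken as 1 mouse, as the sample titles number them. KO LT-HSC 3 was placed by its title number with KO mouse 4. The WT LT-HSC libraries are numbered 1 and 2, whereas those of the other WT groups are numbered 1 to 4.

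SOCS proteins are feedback brakes on cytokine signalling. A cytokine activates its receptor and the attached JAK kinases, these phosphorylate STAT transcription factors, and STATs then switch on several SOCS genes. Each SOCS protein carries an SH2 domain, which binds phosphotyrosine on a receptor or kinase, and a SOCS box, which recruits elongins, a cullin and Rbx proteins into a ubiquitin ligase. SOCS1 and SOCS3 also hold a short region that blocks the JAK active site. In blood-forming cells the family is known for restraining signals from erythropoietin, interleukin-3, G-CSF and the interferons.

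STATs bind palindromic sites of the form TTCNNNGAA, which read the same on both strands. RefSeq promoters of build GRCm38.p6, from 250 bases before to 50 bases after the start, were tabled for 4 of the 8 members: Cish, Socs1, Socs3 and Socs4. Those of Cish and Socs3 held this motif. A window around the matches is shown for these 2 genes, because one is the member whose RNA differed most clearly between populations and the other is a textbook STAT3 target; the motif is in capitals, 5′ to 3′ on the gene's strand.
Cish, chr9:107296654-107296683, plus strand: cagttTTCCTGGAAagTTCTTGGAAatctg
Socs3, chr11:117969501-117969530, minus strand: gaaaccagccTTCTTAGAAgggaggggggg
Cish had 2 matches, TTCCTGGAA at positions 1 to 9 and TTCTTGGAA at positions 12 to 20, counted from the RefSeq start as 1. Socs3 had 1 match, TTCTTAGAA, at positions -154 to -146. Of the 32851 promoters tabled, 8.3% held at least 1 match and 0.457% held 2 or more. Socs1 and Socs4 had none of these letters in their windows. The RefSeq start of Cish lies 633 bases inside the gene as GENCODE M21 draws it, and that of Socs3 681 bases inside, and the data hold no measurement of STAT binding.

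Total counts ran from 18892723 to 31611366 per library, with a median of 26158938, so that 3 counts were worth 0.0985 to 0.194 CPM, the unit of level used throughout (counts over the TMM-scaled library size). Phf6 averaged 9.65 CPM in KO against 150.5 CPM in WT LT-HSC, 11.8 against 137.8 CPM in MPP2 and 9.01 against 130.9 CPM in MPP3, each KO library lying below each WT library. Genes of the sorted markers varied between libraries of a group. Ly6a, which encodes Sca-1, ran from 5.74 to 1429 CPM in KO MPP2 and from 17.3 to 264.4 CPM in WT MPP2. Slamf1, which encodes CD150, averaged 59.3 CPM in KO and 58.1 CPM in WT LT-HSC, 48.1 and 49.0 CPM in KO and WT MPP2, and 0.342 and 0.931 CPM in KO and WT MPP3, with a range of 17.7 to 78.1 CPM in KO MPP2 and 9.18 to 80.1 CPM in WT MPP2. Flt3, a marker of later progenitors that is not among the sorted markers, ran from 4.81 to 314.6 CPM in KO MPP2 and from 6.96 to 590.6 CPM in WT MPP2. Flt3 was highest in MPP3, where the KO libraries averaged 753.3 CPM, with a minimum of 644.7 CPM. The WT libraries of MPP3 averaged 1091 CPM, with a minimum of 922.7 CPM. Dntt, likewise no sorted marker, was also highest in MPP3, with means of 831.6 CPM (KO) and 1178 CPM (WT). Which progenitors the cells sorted as MPP3 held was not tested. Cd48 averaged 10.96 and 9.62 CPM in KO and WT LT-HSC, against at least 345.6 CPM in the 4 progenitor groups. The libraries KO MPP2 1, KO MPP3 1 and KO MPP3 2 stood apart, since 1 gene took over 5% of their counts. Markers of B cells and plasma cells made up 37.7% of the counts of KO MPP2 1 and 20.6% of those of KO MPP3 1. The libraries numbered 2 came from male mice by their Xist and Ddx3y counts, and the 15 others from females.

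Levels of different members were compared per kilobase of the principal GENCODE transcript. In LT-HSC, Cish and Socs2 led the family. Cish averaged 18.2 CPM per kb in KO and 26.5 in WT LT-HSC, and Socs2 averaged 21.5 in KO and 21.97 in WT LT-HSC. In the progenitors the leading members were mostly Socs4, Socs5 and Socs6, at 5.98, 3.70 and 5.83 CPM per kb in KO MPP2, 7.92, 4.85 and 7.22 in WT MPP2, 6.09, 7.89 and 8.03 in KO MPP3, and 5.47, 6.59 and 8.40 in WT MPP3. Socs2 was among them in MPP2, at 6.72 CPM per kb in KO, where a single library gave most of the mean, and 4.93 in WT. Socs1, Socs3 and Socs7 were mostly the low members, none above 3.39 CPM per kb in any group. In WT MPP3, however, Socs1 at 3.39 CPM per kb lay above Socs2 at 2.57. Over the union of exons in place of the principal transcript, Cish still had the highest level in LT-HSC, at 8.10 CPM per kb in KO and 11.8 in WT. Socs2 ranked behind Socs4 there. By this length Socs2 was the lowest member in MPP3, at 0.601 CPM per kb in KO and 0.599 in WT, below Socs1 at 2.05 and 3.385.

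**Figure D1:**
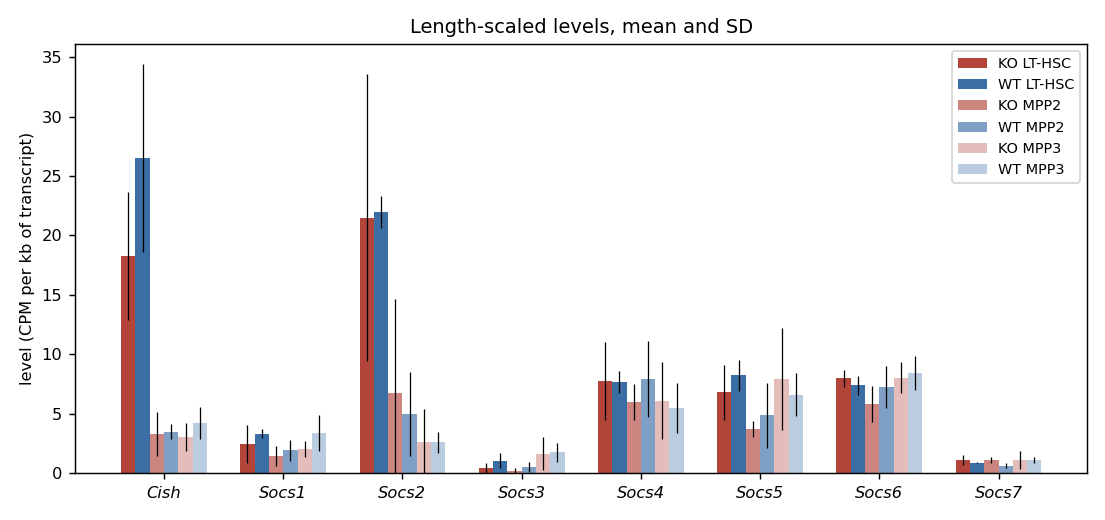
Mean level of each SOCS family member per kilobase of its principal transcript (bars, CPM per kb) in the 6 groups, KO in red before WT in blue in each population, with lines of 1 SD over libraries cut at 0. Cish and Socs2 are highest in the LT-HSC groups, between 18.2 and 26.5 CPM per kb, and Socs3 and Socs7 lie lowest, down to 0.202 CPM per kb for Socs3 in KO MPP2.

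Cish encodes CIS, which docks on activated cytokine receptors and is a classical STAT5 target. It is annotated at chromosome 9, 107296026 to 107302784, plus strand, in mm10 (ENSMUSG00000032578.7). In the LT-HSC libraries it had 68.8, 38.4 and 48.8 CPM in KO and 91.4 and 59.7 CPM in WT. In MPP2 it had 16.8, 4.57, 9.44 and 6.95 CPM in KO and 8.14, 11.9, 10.8 and 8.56 CPM in WT. In MPP3 it had 13.2, 7, 5.24 and 8.99 CPM in KO and 15.7, 13.8, 6.69 and 11.9 CPM in WT. The lowest LT-HSC library, at 38.4 CPM, thus lay above the highest progenitor library, at 16.8 CPM, and the genotypes overlapped within each population. Groups of CPM that did not overlap were found for 14.2% of all genes in KO LT-HSC against KO MPP2, 12% in KO LT-HSC against KO MPP3, 26.8% in WT LT-HSC against WT MPP2 and 26.3% in WT LT-HSC against WT MPP3. In bulk samples, more cells that express a gene and more of its RNA per cell cannot be told apart.

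The population difference of Cish passed the test in both genotypes. By edgeR's quasi-likelihood test with Benjamini-Hochberg adjustment, its log2 fold change was 2.47 ± 0.403 (SE) in KO LT-HSC against KO MPP2 (adjusted p = 0.00283) and 2.59 ± 0.404 in KO LT-HSC against KO MPP3 (adjusted p = 0.001). In WT LT-HSC it was 2.94 ± 0.434 against WT MPP2 (7.68-fold, adjusted p = 0.00614) and 2.65 ± 0.432 against WT MPP3 (6.28-fold, adjusted p = 0.00329). Cish was the 1 of 8 members called in each of these 4 comparisons, in which 1.81%, 2.64%, 0.63% and 1.1% of all genes were called in either direction. The call of Cish was lost under some choices in both genotypes. Without WT LT-HSC 1 its edgeR log2 fold change was 2.61 against WT MPP2 (adjusted p = 0.141) and 2.33 against WT MPP3 (adjusted p = 0.0899), and without WT LT-HSC 2 it was 3.24 against WT MPP2 (adjusted p = 0.0549). Each of these refits leaves 1 WT LT-HSC library, which is assumed to vary like the other groups. In KO LT-HSC against KO MPP2 it was 2.47 with only the groups compared (adjusted p = 0.0636), and the libraries numbered 1 and 2 alone gave no call in any of the 4 comparisons. Taken as the mean of KO and WT, a comparison added after the data were seen, Cish was higher in LT-HSC by 2.70 ± 0.296 over MPP2 (adjusted p = 4.37e-05) and by 2.62 ± 0.295 over MPP3 (adjusted p = 1.32e-05) on the log2 scale.

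Within mice the same order held. Cish was higher in LT-HSC than in MPP2 in 5 of 5 mice, by 4.10-fold to 11.2-fold, and higher than in MPP3 in 5 of 5, by 4.32-fold to 5.84-fold. Of all genes, 10.3% were higher in LT-HSC than in MPP2 in all 5 mice and 8.72% were higher than in MPP3. Between MPP2 and MPP3 Cish was higher in MPP2 in 3 of 8 mice, with ratios from 0.520 to 1.80. A predicted gene on the opposite strand, Gm17040, shares 261 exonic bases with Cish, and without a stated strand setting its reads cannot be told apart from those of Cish. It held 122 counts over all 21 libraries, against at least 113 counts of Cish in every single library.

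**Figure D2:**
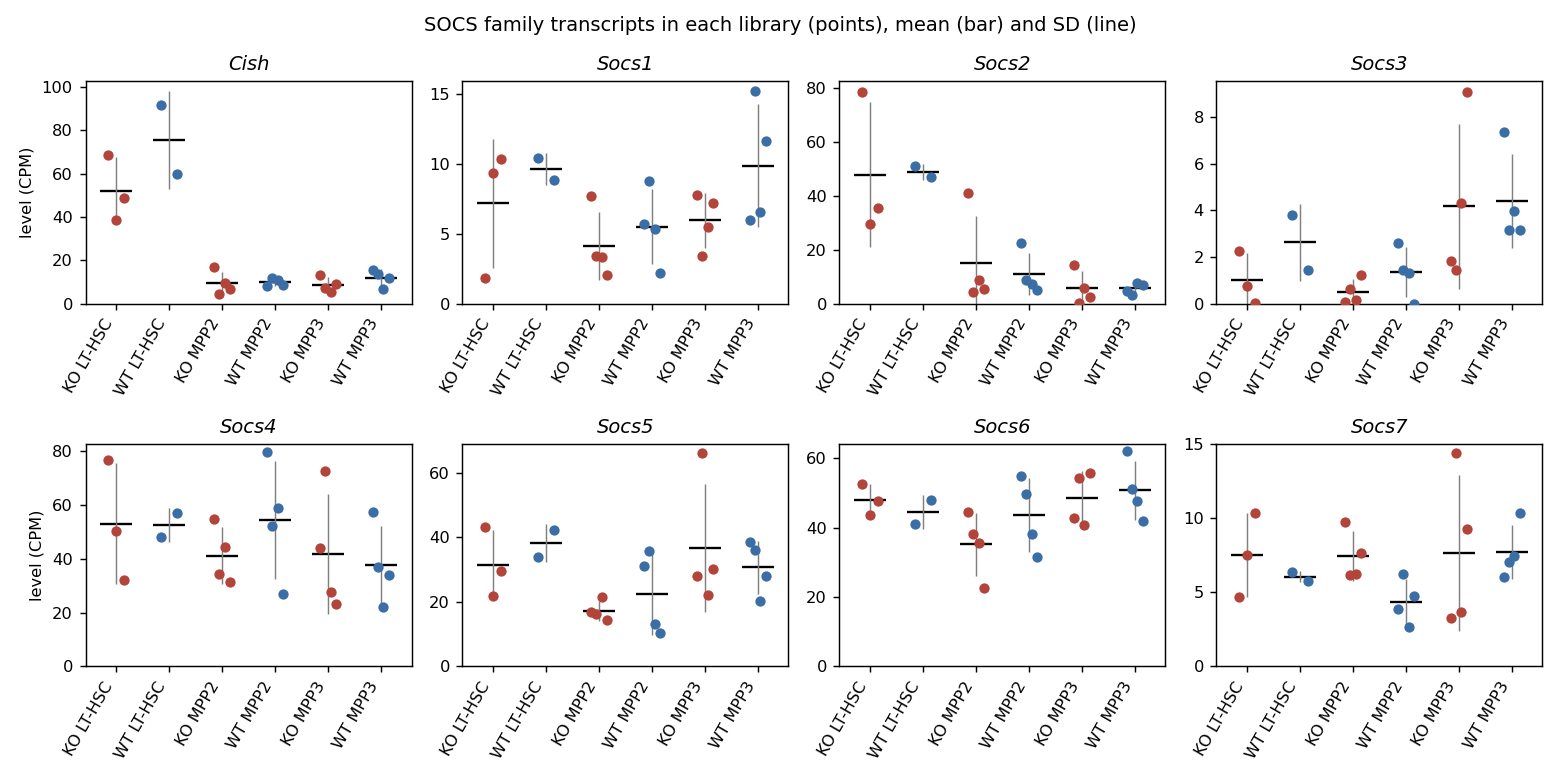
CPM of each SOCS family member in every library, with points for libraries, a bar for each group mean and a line of 1 SD on either side, KO in red left of WT in blue within each population, and a scale of its own for each gene. Cish separates LT-HSC, at 38.4 CPM and above, from both progenitor populations, at 16.8 CPM and below, while the points of Socs4, Socs6 and Socs7 overlap across the populations.

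Socs2, annotated at chromosome 10, 95385362 to 95417180, minus strand (ENSMUSG00000020027.18), encodes the family's restraint on growth hormone receptor signalling and is another known STAT5 target. It had 78.5, 29.4 and 35.5 CPM in KO LT-HSC and 50.9 and 46.7 CPM in WT LT-HSC. In MPP2 it had 41.1, 4.45, 8.66 and 5.45 CPM in KO and 22.5, 8.94, 7.19 and 5.16 CPM in WT. In MPP3 it had 14.5, 0.342, 5.79 and 2.31 CPM in KO and 4.85, 3.36, 7.54 and 7.09 CPM in WT. The LT-HSC libraries lay above all MPP3 libraries and above the WT MPP2 libraries, whereas KO MPP2 1 reached into the KO LT-HSC range.

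Socs2 was not called in any comparison of 2 groups. Its log2 fold change was 1.68 ± 0.843 in KO LT-HSC against KO MPP2 (edgeR adjusted p = 0.330), 3.06 ± 0.875 in KO LT-HSC against KO MPP3 (8.32-fold, adjusted p = 0.0724), 2.16 ± 0.919 in WT LT-HSC against WT MPP2 (adjusted p = 0.319) and 3.10 ± 0.930 in WT LT-HSC against WT MPP3 (8.54-fold, adjusted p = 0.163). As the mean of both genotypes it was higher in LT-HSC than in MPP3 by 3.08 ± 0.638 log2 units (edgeR adjusted p = 0.00508), where 6.41% of all genes were called, with Cish and Socs2 the 2 members among them. Against MPP2 the mean difference of Socs2 was 1.92 ± 0.624 (adjusted p = 0.067), in a comparison that called 7.82% of all genes and, of the 8 members, Cish. Other fits of all 21 libraries did call it. With limma's voom quality weights Socs2 passed in KO LT-HSC against KO MPP2 (2.40, adjusted p = 0.0054) and KO MPP3 (3.04, adjusted p = 0.00364), and in WT LT-HSC against WT MPP2 (2.32, adjusted p = 0.0103) and WT MPP3 (3.28, adjusted p = 0.000375). With DESeq2 it passed in KO LT-HSC against KO MPP3 (3.08, adjusted p = 0.00392) and in WT LT-HSC against WT MPP3 (adjusted p = 0.0232). Without the 3 libraries that stood apart, edgeR called Socs2 in KO LT-HSC against KO MPP2 (2.98 ± 0.575, adjusted p = 0.0105), in KO LT-HSC against KO MPP3 (3.56 ± 0.700, adjusted p = 0.0114), in WT LT-HSC against WT MPP2 (2.18 ± 0.543, adjusted p = 0.0464) and in WT LT-HSC against WT MPP3 (3.12 ± 0.550, adjusted p = 0.00732). Those 3 libraries are all KO, and in the WT comparisons the SEs were 0.543 and 0.550 without them, against 0.919 and 0.930 with all 21, at nearly the same fold changes. With the replicate number as a block edgeR called Socs2 in KO LT-HSC against KO MPP3 (3.25 ± 0.677, adjusted p = 0.0109). KO LT-HSC 3 entered this block under its number 3, not with KO mouse 4, where its title number places it.

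In each mouse Socs2 was again highest in LT-HSC. The ratio of LT-HSC to MPP2 was above 1 in 5 of 5 mice, from 1.91 to 6.59, and that of LT-HSC to MPP3 in 5 of 5, from 5.43 to 85.9, the last resting on 6 counts in KO MPP3 2. MPP2 was above MPP3 in 6 of 8 mice. The libraries numbered 1 held the highest Socs2 of their group in KO LT-HSC, WT LT-HSC, KO MPP2, WT MPP2 and KO MPP3. B and plasma cell markers made up 37.7%, 20.6% and 3.81% of the counts of KO MPP2 1, KO MPP3 1 and WT MPP2 1, and 0.00466% in KO LT-HSC 1. They made up 2.695% in WT MPP2 2 and 1.97% in KO MPP2 2, where Socs2 was at 8.94 and 4.45 CPM. The part of these markers in the Socs2 values was not tested.

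**Figure D3:**
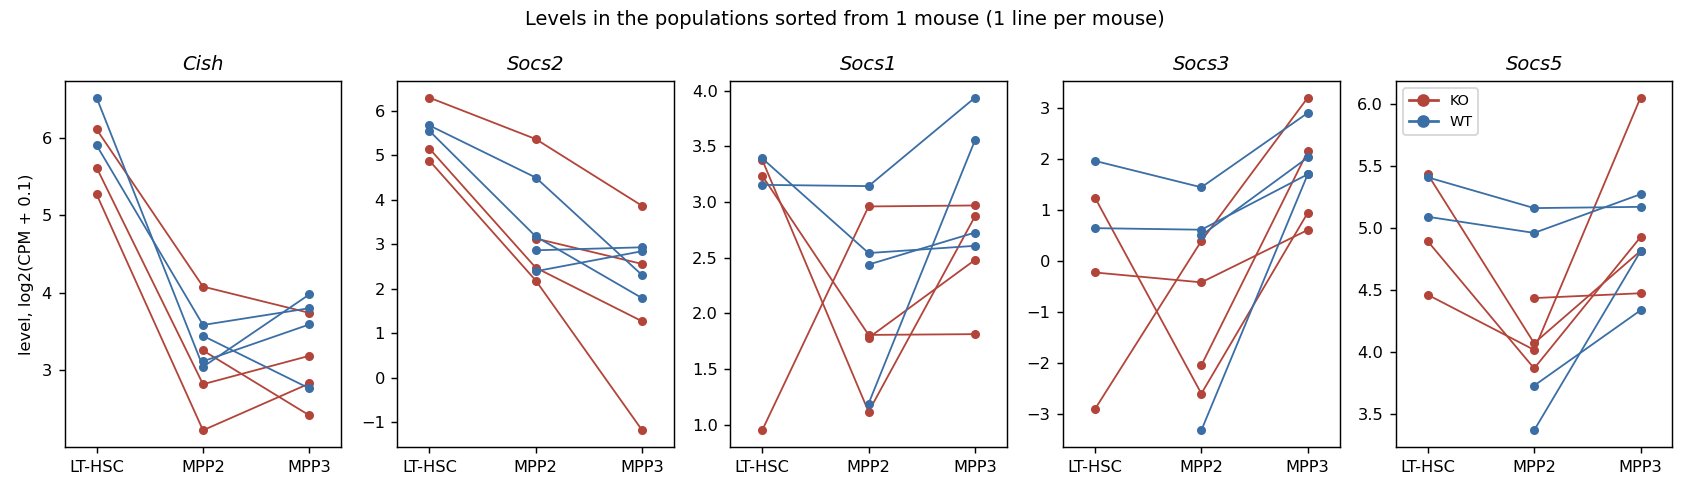
Level, as log2 of CPM plus 0.1, of Cish, Socs2, Socs1, Socs3 and Socs5 in the populations sorted from each mouse, with 1 line for each mouse, KO in red and WT in blue, and a scale of its own for each gene. For Cish and Socs2 each of the 5 lines that start in LT-HSC drops to MPP2, and for Socs1, Socs3 and Socs5 all 8 lines are lower in MPP2 than in MPP3.

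Socs1 and Socs3 encode the 2 members that block JAKs directly. SOCS1 is best known for limiting interferon signals and SOCS3 for limiting interleukin-6-type and G-CSF signals. Socs1 (ENSMUSG00000038037.5, chromosome 16, 10782240 to 10785536, minus strand) had 1.83, 9.33 and 10.3 CPM in KO LT-HSC and 10.4 and 8.80 CPM in WT LT-HSC. In MPP2 it had 7.68, 3.40, 3.34 and 2.07 CPM in KO and 5.72, 8.73, 5.32 and 2.18 CPM in WT. In MPP3 it had 7.73, 3.42, 5.48 and 7.22 CPM in KO and 5.99, 15.2, 6.52 and 11.7 CPM in WT. The groups overlapped except that both WT LT-HSC libraries lay above the WT MPP2 libraries, the higher of which was at 8.73 CPM against 8.80 CPM.

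Socs3 (ENSMUSG00000053113.3, chromosome 11, 117966079 to 117970047, minus strand) had the lowest level per kb in KO LT-HSC and in both MPP2 groups and was close to the floor in several libraries. It had 2.26, 0.754 and 0.0333 CPM in KO LT-HSC, which are 63, 22 and 1 counts, and 3.795 and 1.46 CPM in WT LT-HSC. In MPP2 it had 0.0646, 0.647, 0.142 and 1.21 CPM in KO and 2.62, 1.43, 1.31 and 0 CPM in WT. In MPP3 it had 1.82, 1.42, 4.34 and 9.10 CPM in KO and 7.38, 3.15, 3.98 and 3.15 CPM in WT. All MPP3 libraries lay above all MPP2 libraries of the same genotype, as 7.09% of all genes did in one direction or the other in KO and 10.2% in WT. The 0 in WT MPP2 4 allows up to 3 counts, by counting error alone.

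The difference of Socs3 between the progenitors was large and poorly determined. Its log2 fold change was -2.99 ± 1.19 in KO MPP2 against KO MPP3 (edgeR adjusted p = 0.262) and -1.71 ± 1.12 in WT MPP2 against WT MPP3 (adjusted p = 0.549). These comparisons called 0 of 8 members and 0.886% and 1.2% of all genes. At an unadjusted p under 0.05, where 14.5% of all genes passed, 3 members passed in KO MPP2 against KO MPP3 by edgeR: Socs3, Socs5 at -1.09 ± 0.390 (adjusted p = 0.214) and Socs6 at -0.46 ± 0.215 (adjusted p = 0.333). In WT MPP2 against WT MPP3 0 of 8 members and 13.5% of all genes did. DESeq2 called 0 of 8 members in both comparisons, with 4.07% of all genes in KO and 4.33% in WT. As the mean of both genotypes, a comparison that called 6.87% of all genes and 0 of 8 members, Socs3 was at -2.35 ± 0.816 (adjusted p = 0.0903), and it passed there by DESeq2 (adjusted p = 0.0132), which called 11.3% of all genes, and by limma with voom quality weights (adjusted p = 0.0123), which called 12.2%. In all 8 mice MPP2 was below MPP3 for Socs1, with ratios from 0.187 to 0.995, for Socs3, with ratios from 0 to 0.455, and for Socs5, with ratios from 0.243 to 0.993. Of all genes, 4.54% were lower in MPP2 in all 8 mice. Neutrophils respond to G-CSF, and their markers made up at most 0.0112% of counts in KO MPP3 and 0.205% in WT MPP3. WT MPP3 1 had the highest share and the highest Socs3 of its group, at 7.38 CPM. In KO MPP3 the highest share was in KO MPP3 2, with the lowest Socs3 at 1.42 CPM. The highest Socs3 of KO MPP3, 9.10 CPM, was in KO MPP3 4 at a share of 0.00178%. KO MPP2 1 had a share of 0.792% and 1 Socs3 count, and the markers' part in the Socs3 values was not tested.

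Socs4 and Socs5 form a pair with long amino-terminal regions and are known for acting on the epidermal growth factor receptor. Socs4 (ENSMUSG00000048379.9, chromosome 14, 47276931 to 47296102, plus strand) averaged 53.2 ± 22.5 CPM in KO LT-HSC (SD, n = 3) and 52.6 ± 6.38 CPM in WT LT-HSC (SD, n = 2). It averaged 41.1 ± 10.6 CPM in KO MPP2 and 54.5 ± 21.8 CPM in WT MPP2, and 41.9 ± 22.3 CPM in KO MPP3 and 37.6 ± 14.6 CPM in WT MPP3 (SD, n = 4 each). Its 6 group means spanned 0.56 log2 units, less than its within-group SD of 0.58, so the order of its groups was not resolved.

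Socs5 (ENSMUSG00000037104.8, chromosome 17, 87107679 to 87137839, plus strand) had its lowest mean in MPP2 in each genotype. In KO LT-HSC it had 43.1, 21.9 and 29.6 CPM, against 16.7, 16.1, 21.5 and 14.5 CPM in KO MPP2 and 28.1, 66.2, 22.1 and 30.3 CPM in KO MPP3. The KO MPP2 libraries lay narrowly below those of both other KO populations, with the highest at 21.5 CPM against 21.9 and 22.1 CPM for the lowest of KO LT-HSC and KO MPP3. Groups without overlap were found for 14.2% of all genes in KO LT-HSC against KO MPP2 and 7.09% in KO MPP2 against KO MPP3. In WT it had 34.0 and 42.4 CPM in LT-HSC, 31.0, 35.7, 13.2 and 10.2 CPM in MPP2 and 38.6, 35.9, 20.1 and 28.0 CPM in MPP3, and here the populations overlapped. Its log2 fold change was 0.87 ± 0.414 in KO LT-HSC against KO MPP2 (edgeR adjusted p = 0.303). It was 0.76 ± 0.461 in WT LT-HSC against WT MPP2 (edgeR adjusted p = 0.521). The WT LT-HSC libraries are numbered 1 and 2, and the WT MPP2 libraries of these numbers held the higher Socs5, at 31.0 and 35.7 CPM. Within WT mice 1 and 2 the ratios of LT-HSC to MPP2 were 1.095 and 1.188.

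Socs6, which binds the stem cell factor receptor KIT, and Socs7, known as a partner of insulin receptor substrates, were the flattest members besides Socs4. Socs6 (ENSMUSG00000056153.14, chromosome 18, 88665224 to 88927481, minus strand) averaged 48.0 ± 4.46 CPM in KO LT-HSC (SD, n = 3) and 44.5 ± 4.86 CPM in WT LT-HSC (SD, n = 2). It averaged 35.2 ± 9.15 CPM in KO MPP2, 43.6 ± 10.7 CPM in WT MPP2, 48.4 ± 7.78 CPM in KO MPP3 and 50.7 ± 8.60 CPM in WT MPP3 (SD, n = 4 each). Its group means spanned 0.55 log2 units, and 83.2% of tested genes spanned more. In 7 of 8 mice it was lower in MPP2 than in MPP3.

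Socs7 (ENSMUSG00000038485.5, chromosome 11, 97362551 to 97398542, plus strand) had 4.67, 7.51 and 10.3 CPM in KO LT-HSC and 6.33 and 5.78 CPM in WT LT-HSC. In MPP2 it had 9.75, 6.15, 6.21 and 7.63 CPM in KO and 3.87, 6.25, 2.63 and 4.74 CPM in WT. In MPP3 it had 3.26, 14.4, 3.64 and 9.24 CPM in KO and 5.99, 7.07, 7.43 and 10.3 CPM in WT. The genotypes of MPP2 overlapped in 1 WT library, WT MPP2 2, at 6.25 CPM.

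The 6 group means of a member thus spread very unequally. On the log2 scale they spanned 4.01 for Socs2, 3.36 for Socs3, 3.17 for Cish, 1.36 for Socs1, 1.15 for Socs5, 0.84 for Socs7, 0.56 for Socs4 and 0.55 for Socs6. Of all tested genes, 5.14% had a larger span than Socs2, 8.78% than Socs3 and 10.4% than Cish. The spread within groups differed as well. It was an SD of 0.54 log2 units for Cish, 1.29 for Socs2 and 1.61 for Socs3, so that of these 3 members the one with the smallest span also had the least spread.

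**Figure D4:**
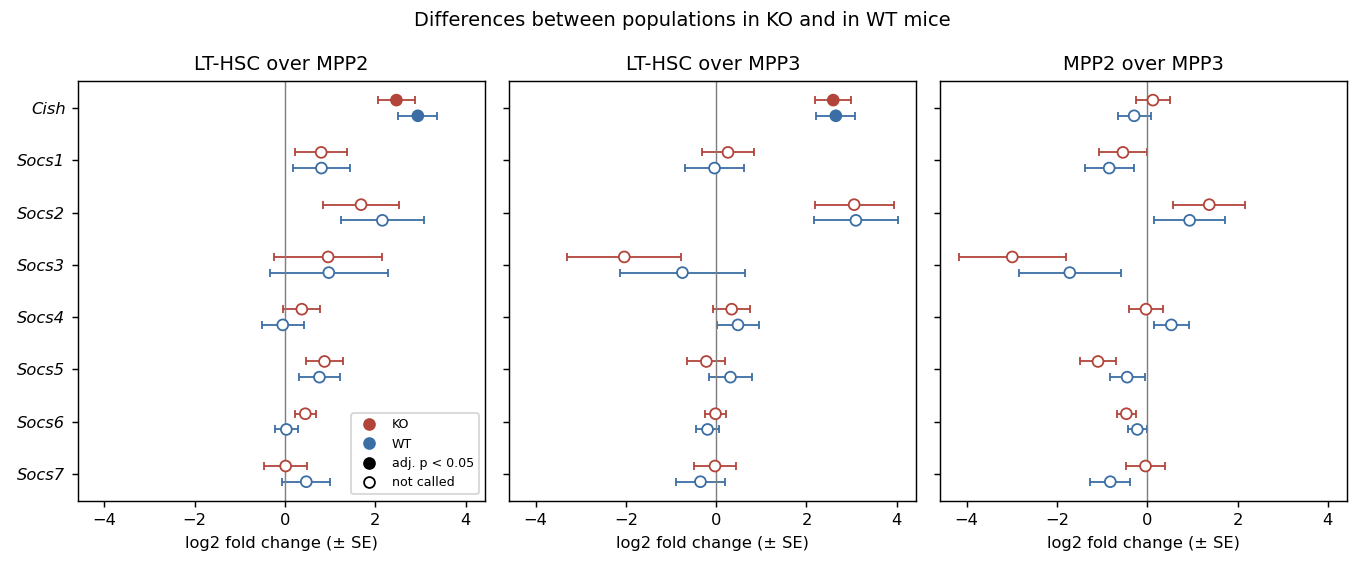
Log2 fold change between populations for each member, with KO in red above WT in blue, bars of 1 SE from edgeR's fit of all 21 libraries and filled points for adjusted p under 0.05. Cish lies between 2.47 and 2.94 in the comparisons of LT-HSC with a progenitor, with SEs of 0.434 or less, whereas Socs2 reaches 3.10 with SEs up to 0.930.

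The study's main question was what loss of Phf6 changed in each population. No SOCS member was called in KO against WT. The number called was 0 of 8 in LT-HSC, where 0.00474% of all genes were called, 0 of 8 in MPP2, where 0.0142% were, and 0 of 8 in MPP3, where 0.00948% were. At an unadjusted p under 0.05 by edgeR the count was also 0 of 8 in each population, against shares of all genes of 2.43% for LT-HSC, 6.72% for MPP2 and 5.62% for MPP3. DESeq2 called 0 of 8 in each, and 0.133%, 0.166% and 0.18% of all genes. The CPM of KO and WT overlapped for all 8 members in the 3 populations, where the share of all genes with groups that did not overlap was 18.3% for LT-HSC, 2.5% for MPP2 and 2.69% for MPP3.

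The largest estimates had wide errors. Cish was at -0.54 ± 0.467 (SE) on the log2 scale in KO against WT LT-HSC, -0.06 ± 0.368 in MPP2 and -0.48 ± 0.369 in MPP3. Socs3 was at -1.37 ± 1.40 in LT-HSC, at -1.35 ± 1.13 in MPP2 and at -0.08 ± 1.09 in MPP3. Socs7 was at 0.77 ± 0.441 in MPP2, which had the lowest adjusted p of the members there, 0.806 by edgeR. Socs1 was below 0 in the 3 populations, at -0.42 ± 0.684, -0.42 ± 0.538 and -0.72 ± 0.538. Socs2 was at -0.03 ± 1.005 in LT-HSC, at 0.44 ± 0.785 in MPP2 and at 0.01 ± 0.788 in MPP3. Socs6 was the best determined member, at 0.11 ± 0.278, -0.31 ± 0.215 and -0.07 ± 0.215. Over the members and populations the SEs ran from 0.215 to 1.40 log2 units, and the missing calls do not show that the levels were equal.

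**Figure D5:**
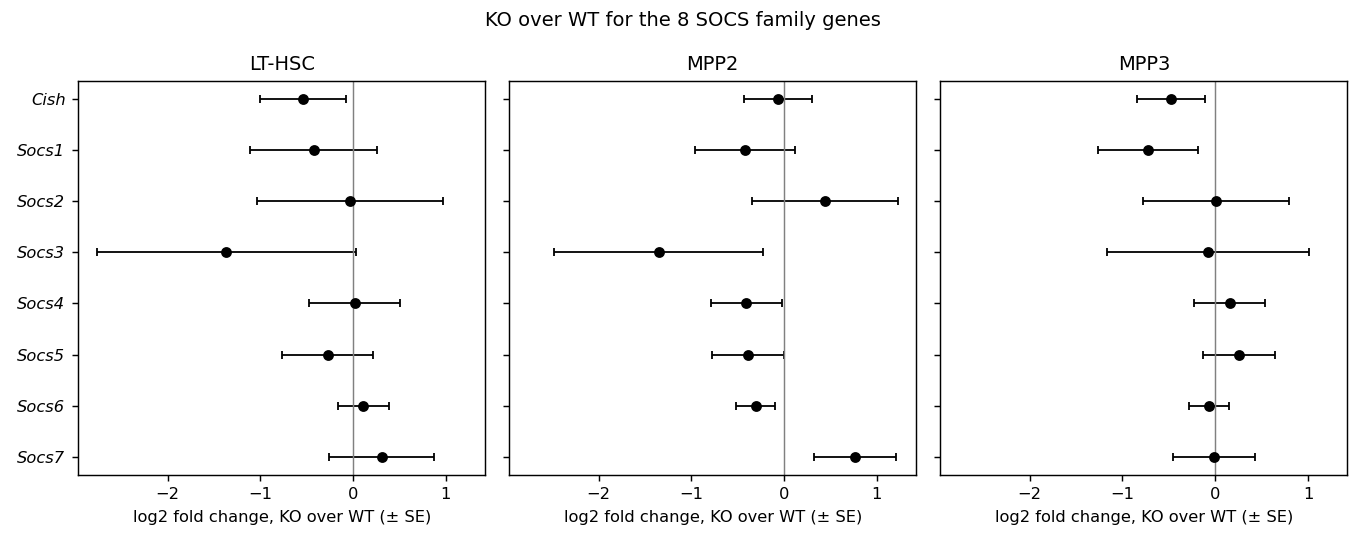
Log2 fold change of KO over WT for each member in LT-HSC, MPP2 and MPP3, with bars of 1 SE from edgeR's fit of all 21 libraries. The estimates run from -1.37 (Socs3 in LT-HSC) to 0.77 (Socs7 in MPP2), and none of the 24 passed the threshold.

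Adding the MPP2 and MPP3 counts of each mouse gave 4 KO and 4 WT sums, in which 0 of 8 members and 0.0112% of genes were called, 0 of 8 and 4.28% had an unadjusted p under 0.05 by edgeR, and DESeq2 called 0 of 8 and 0.195%. There Socs1 was at -0.64 ± 0.361 (edgeR adjusted p = 0.995), Cish at -0.31 ± 0.321 and Socs2 at 0.23 ± 0.664. The KO effect did not differ detectably between populations for any member: 0 of 8 were called in each of the 3 tests of the difference between KO effects, in which 0% of all genes were called by edgeR. At an unadjusted p under 0.05 it was 0 of 8 members, and 3.6% of all genes for LT-HSC against MPP2, 2.47% for LT-HSC against MPP3 and 4.47% for MPP2 against MPP3. DESeq2 called 0 of 8, and 0.114%, 0.123% and 0.0711% of all genes. The widest of these differences was Socs3 in LT-HSC against MPP3, at -1.29 ± 1.77.

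Other genes of the pathway were read from lists, by their counts. None of the 11 JAK and STAT genes, the 32 tested cytokine receptors, the 13 other negative regulators, the 8 SOCS box partners, the 17 tested STAT-induced genes, the 20 interferon-induced genes or the 15 tested immediate early genes was called in KO against WT in any population. The interferon-induced genes had medians of 0.48, 0.28 and 0.51 log2 units in KO against WT LT-HSC, MPP2 and MPP3. Their estimates were above 0 for 18, 14 and 16 of 20, where the medians of all genes were 0.00, 0.01 and 0.00. Genes of a list can vary together and the populations were taken as coming from the same mice, so these counts are not independent.

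Among the receptors, Il11ra1, the interleukin-11 receptor, was called higher in LT-HSC in 3 of 4 comparisons. It averaged 82.1 CPM in KO LT-HSC against 35.4 CPM in KO MPP2 (1.21 ± 0.193 log2 units, edgeR adjusted p = 0.00227) and 32.4 CPM in KO MPP3 (1.34 ± 0.193, adjusted p = 0.000505), and 73.8 CPM in WT LT-HSC against 34.2 CPM in WT MPP3 (1.11 ± 0.213, adjusted p = 0.0117). Against WT MPP2, at 41.5 CPM, it was not called (0.83 ± 0.214, edgeR adjusted p = 0.082). Ghr, the growth hormone receptor that SOCS2 restrains, averaged 21.7 CPM in KO LT-HSC against 0.863 CPM in KO MPP3 (4.63 ± 1.08, edgeR adjusted p = 0.0232).

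Of the JAK and STAT genes, Stat4 was higher in KO LT-HSC, at 106.6 CPM against 43.3 CPM in KO MPP2 (edgeR adjusted p = 0.00416). Stat3 was lower in WT MPP2, at 93.0 CPM against 165.1 CPM in WT MPP3 (-0.83 ± 0.172, adjusted p = 0.0256). These were the calls of that list in the 6 comparisons of populations within a genotype. Of the SOCS box partners, Rbx1 was higher in WT MPP2 than in WT MPP3, at 415.9 CPM against 288.1 CPM (edgeR adjusted p = 0.0406).

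STAT-induced genes other than the family had few calls between populations. Their median log2 fold change was 0.30 in KO LT-HSC against KO MPP2 and 0.04 against KO MPP3, with 0 of 17 called, and 0.51 in WT LT-HSC against WT MPP2 and 0.03 against WT MPP3, with 1 and 0 of 17 called. Estimates above 0 numbered 11, 9, 14 and 11 of 17 in these 4 comparisons. The 1 called was Junb, also an immediate early gene, at 231.1 CPM in WT LT-HSC against 40.2 CPM in WT MPP2 (2.52 ± 0.553, edgeR adjusted p = 0.0403). Immediate early genes, which respond within minutes to stimulation and to cell handling, had medians of 1.75 in KO LT-HSC against KO MPP2, 1.11 against KO MPP3, 1.69 in WT LT-HSC against WT MPP2 and 1.60 against WT MPP3, where the medians of all genes lay between -0.04 and 0.00. Of the 15 tested, 2, 1, 2 and 0 were called higher. Nr4a1 was among them, at 13.8 CPM in KO LT-HSC against 1.19 CPM in KO MPP2 (edgeR adjusted p = 0.0116). Estimates above 0 numbered 13, 13, 12 and 13 of 15, those of Cish and Socs2 were also above 0 in the 4 comparisons, and the part of these genes in those values was not tested.

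Between the progenitors, the medians of all lists but the SOCS box partners were below 0, and 6 of 8 SOCS members had estimates below 0 in each genotype. Those above 0 were Cish and Socs2 in KO, and Socs2 and Socs4 in WT. Interferon-induced genes had medians of -0.75 in KO MPP2 against KO MPP3 and -0.63 in WT MPP2 against WT MPP3, with 1 and 4 of 20 estimates above 0 and 0 called. STAT-induced genes had medians of -0.36 and -0.60 in the same comparisons, with 0 of 17 called, JAK and STAT genes -0.41 in both, other negative regulators -0.29 and -0.22, immediate early genes -0.31 and -0.35, and SOCS box partners 0.21 and 0.39. The medians of all genes were 0.02 and -0.02.

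The genes whose 6 group means were most like those of a member were taken by the root mean square difference of centred log2 CPM over 10103 named genes. They are given as a description over 6 groups of the same libraries, for the members whose means spanned at least 1 log2 unit. Nearest to Cish were Itsn1 (0.235), Col16a1 (0.253) and Traf1 (0.295). Itsn1 averaged 70.4 CPM in KO and 79.5 CPM in WT LT-HSC, and 15.8 CPM in KO MPP2, 17.7 CPM in WT MPP2, 16.4 CPM in KO MPP3 and 16.7 CPM in WT MPP3. Nearest to Socs2 were Plxdc2 (0.0914), Art4 (0.115) and Sdc2 (0.139), all at least 37.9 CPM in the LT-HSC groups and at most 10.6 CPM in the MPP3 groups. Nearest to Socs3 were Ano10 (0.133), Epb41l3 (0.21) and Il18rap (0.36), nearest to Socs1 were Pde3b (0.0966), Ttc30b (0.114) and Dab2ip (0.122), and nearest to Socs5 were Klc4 (0.0668), Tnfsf10 (0.0735) and Trim12a (0.0832).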

How the data were processed

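The Nextera XT kit served for library preparation, per the labels' protocols. The authors deposited unnormalized read counts for each gene. STAR and the build mm10 are named in the submitters' processing notes, while the sources used here give neither the STAR version nor the counting program, its strand setting or its annotation. Of 54446 gene IDs, 54409 matched GENCODE M21, which gave symbols and coordinates, and 0 pairs of libraries had identical counts.

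The counts entered edgeR 4.0.16 in R 4.3.3 (robust quasi-likelihood, TMM factors) in 1 fit of 21 libraries and 6 groups. Genes were kept by filterByExpr with a minimum count of 10 (21100 genes, or 17912 over the sums per mouse), and p values were adjusted by Benjamini-Hochberg over all of them, with a threshold of 0.05. SEs were taken from the fold change and its F statistic. Alternatives used DESeq2 1.42.0 and limma 3.58.1. Labels do not state how each mouse was obtained, and p values measure the spread between these libraries. The floors and the bound given for a count of 0 cover counting error only, whereas SEs and SDs include the spread between libraries.

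The members and gene lists were chosen with earlier results of these data known. All 8 members are named, and from each list up to 3 genes of smallest p in a comparison may be named. Some list genes, and counts that rest on them, are not reported here. Contrary to the plan of printing sequence upstream of the start alone, the Cish window runs past the start, where both matches lie.

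As a check of pairing, deviations from group means of KO and WT libraries with the same number correlated at 0.207 to 0.282 in MPP2, 0.0807 to 0.141 in MPP3 and 0.0390 to 0.0417 in LT-HSC. Libraries with other numbers averaged -0.0813, -0.0400 and -0.0202, with single pairs up to 0.256 in MPP2, 0.148 in MPP3 and 0.00482 in LT-HSC. Deviations from a mean cancel out within a group, which pulls these averages below those of the same number wherever the latter are positive. Pairs of the same number all passed 0.1 in MPP2 only. Since some pairs with other numbers were as high, the check cannot decide whether libraries pair by number.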

Additional observations from a re-analysis of the deposited data

Results flagged for a closer look

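In 32 groups of 4 libraries, 1 value lay far from the rest of its group, and by chance about 1 in 20 groups would hold such a value. It was Socs2 in KO MPP2 1, at 41.1 CPM, where the 3 other KO MPP2 libraries had 4.45, 8.66 and 5.45 CPM. In that library the immunoglobulin gene Igkc took 19.8% of the counts, and neutrophil markers took 0.792%. The TMM factor of KO MPP2 1 was 0.496, against 0.9895 to 1.048 in the other KO MPP2 libraries, and a lower factor gives a higher CPM. Whether the value would stand apart without this scaling was not tested. KO LT-HSC 1, from the mouse of the same number, had the highest Socs2 of all libraries, at 78.5 CPM. Without KO MPP2 1, the mean difference of Socs2 between LT-HSC and MPP2 was 2.56 log2 units (edgeR adjusted p = 0.00923), against 1.92 with it (adjusted p = 0.067). The cause was not tested.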

How the results depend on the processing

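No estimate of a member that passed the test changed sign under any alternative run, and none of the 136 alternative fits of KO against WT or of KO effects called a member. The number of members called was 1 in each comparison of LT-HSC with a progenitor, and 2 or 0 under some alternatives; the second was Socs2 and the one lost was Cish. It was 2 with voom quality weights, with the mouse as a random effect (correlation 0.149) and without the 3 libraries that stood apart (chosen after seeing the data), in all 4. It was 2 with DESeq2 in both comparisons with MPP3, with only the groups compared in WT LT-HSC against WT MPP3, and in KO LT-HSC against KO MPP3 with the replicate block or with libraries numbered 3 and 4, where 1 KO LT-HSC library enters and is assumed to vary like the other groups. The block changed 1 further call: in the mean of both genotypes Socs2 passed in LT-HSC against MPP2 (2.11, adjusted p = 0.0153). It was 0 with libraries numbered 1 and 2 in all 4, where Cish was at 2.91 (adjusted p = 0.0732, WT LT-HSC against WT MPP2), 2.38 (0.111, WT, MPP3), 2.35 (0.126, KO, MPP2) and 2.45 (0.0694, KO, MPP3), and 0 with only the groups compared in KO LT-HSC against KO MPP2 (2.47, adjusted p = 0.0636). Leaving out single libraries gave 0 to 1 in each WT comparison, 1 in KO LT-HSC against KO MPP2 and 1 to 2 in KO LT-HSC against KO MPP3, where Socs2 passed without KO MPP3 1 (adjusted p = 0.0273). In the mean of both genotypes Cish passed in all 22 alternatives in both comparisons, with adjusted p up to 0.00755, and Socs2 against MPP3 in 21 of 22, failing with libraries numbered 1 and 2 (adjusted p = 0.118). Socs5 in MPP2 against MPP3 passed with DESeq2 (adjusted p = 0.0434) and without WT MPP2 2 (0.0407). Beyond the fewer libraries or genes in a fit, the causes were not tested. Socs3 rested on the fewest counts, with 0 to 4 in 4 libraries, whose total counts ran from 24516774 to 31611366.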
